A study of Mus musculus with 12 samples.

Results

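The genes described here encode the phase II conjugation enzymes of the mouse and the neighbouring detoxification families grouped with them: the glutathione S-transferases (Gst), the microsomal glutathione S-transferases (Mgst), the UDP-glucuronosyltransferases (Ugt), the sulfotransferases (Sult), the epoxide hydrolases (Ephx) and the aldo-keto reductases of family 1 (Akr1). Members were taken by name: a probe set belonged when it carried a single gene symbol and that symbol began with Gsta, Gstk, Gstm, Gsto, Gstp, Gstt, Gstz, Mgst, Ugt1, Ugt2, Sult, Ephx or Akr1. Of 12488 probe sets, 47 met the rule, and they stood for 37 genes. No probe set with a single symbol named a Ugt1 gene, so glucuronidation is represented by Ugt2 genes alone. After a filter on dim probe sets, 34 members of 28 genes were tested.

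Conjugation makes fat-soluble compounds easier to excrete. Glutathione S-transferases attach glutathione to reactive electrophiles, UDP-glucuronosyltransferases add glucuronic acid, and sulfotransferases add sulfate. Epoxide hydrolases and aldo-keto reductases do not conjugate: they open epoxides with water and reduce aldehydes and ketones. The absorbing cells of the small intestine are known for high levels of several of these enzymes, which act on food compounds and on products of lipid peroxidation before they reach the blood.

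The samples came from APC(Min/+) mice, a strain that carries a mutant Apc allele and forms many intestinal adenomas. All animals were male, 91 days old and Min/+, so normal intestine and tumor both came from animals with the Apc mutation, and no Apc wild-type tissue was included. There were 12 arrays (Affymetrix MG_U74Av2), 6 of normal intestine and 6 of tumor, and in each tissue the 6 arrays covered 3 numbered diets (#1, #2, #3) crossed with Dnmt+/+ or Dnmt+/-, at 1 array a combination. The labels do not describe the diets, do not say which Dnmt gene is meant, and do not say whether tumors were pooled or whether a normal and a tumor array of the same sample code came from the same animal. P-values therefore measure the spread between these arrays. Values below are quantile-normalized intensities, called levels, raised to 44.8 where they fell under it. Differences are on the log2 scale of these levels, from a linear model (limma) with tissue, diet and genotype as terms, and adjusted p is the Benjamini-Hochberg value over all 7453 probe sets tested, called at 0.05. Levels of different probe sets are not comparable with each other.

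The 4 diet #1 arrays were deposited in another form. On them 40.9% to 46% of values stood at exactly 50, which after normalization hides any level up to between 113 and 144, whereas the other 8 arrays had no such floor. Diet #1 and this file form cannot be told apart, and diet #1 is given as levels only. Absorptive enterocyte markers had a summed level of 107488 to 116640 on the diet #2 normal arrays and 157000 to 182803 on the other normal arrays. In tumor the sum was 108926 to 142035, below every normal array outside diet #2. Bright probe sets weigh most in these sums, among them Apoa1 and Apoa4, which did not pass (limma adjusted p = 0.31 and 0.18). None of the 16 tested was at the floor throughout, 4 were lower in tumor and 2 were higher, with a median difference of -0.18. These and the marker counts below are to be read beside the 16.6% of all probe sets called lower and 17.1% called higher. Exocrine pancreas markers summed to 209079 to 228179 on the diet #2 normal arrays, and on all others to between 23700 and 27490. Without Zg16, which is also a goblet marker, the sums were 185509 to 203751 against 2769 to 5396. Markers of goblet cells (4 of 8 tested), fibroblasts (4 of 8), Paneth cells (3 of 3) and mast cells (6 of 6) were higher in tumor, and of proximal small intestine (3 of 4), T and NK cells (3 of 4) and adipocytes (4 of 5) lower. Hepatocyte markers were lower in 2 of 3 (Ttr and Cps1, whereas Alb did not pass, limma adjusted p = 0.67). Ileum markers were higher in 1 of 2 and colon markers in 1 of 3 (Car4). The colon marker Car1 did not pass (limma adjusted p = 0.20) but differed between tumors. It read 5091 and 4039 on the diet #2 and diet #3 Dnmt+/- tumor arrays and 44.8 to 99.4 on all other arrays. The ileum marker was Fabp6, the ileal bile acid binding protein, chosen for mention after its values were seen, at 44.8 to 148 in normal intestine and 2847 to 14757 in tumor (limma adjusted p = 3.4e-07). The part of all these markers in the results below was not tested, and in such bulk samples fewer cells of a type and less RNA per cell cannot be told apart.

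The tumors had lower levels of most of the members tested. Of the 34 tested members, 21 (19 genes) were lower in tumor and 4 (3 genes) were higher, and 9 did not pass. Over all 7453 probe sets the shares called were 16.6% lower and 17.1% higher, 33.7% in all. At an unadjusted p under 0.05 there were 29 members, beside 43.4%. The median difference of the members was -0.65, against -0.01 over all probe sets tested. At least 2-fold lower were 12 members, beside 3.57% of all probe sets, and at least 2-fold higher was 1, Akr1b8, beside 4.9%. In 10 members every tumor array was below every normal array (4.78% of all probe sets), and in 2 every tumor array was above (5.84%). The lower calls covered all families, though in Mgst this was Mgst3 alone, whose call was lost whichever array was left out. The lower Akr1 calls, Akr1c13 and Akr1e1, were lost in 7 and 4 of the 12 fits that each left out 1 array. The higher calls were a mu-class transferase, Gstm5, a microsomal transferase, Mgst2, and an aldo-keto reductase, Akr1b8.

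**Figure D1:**
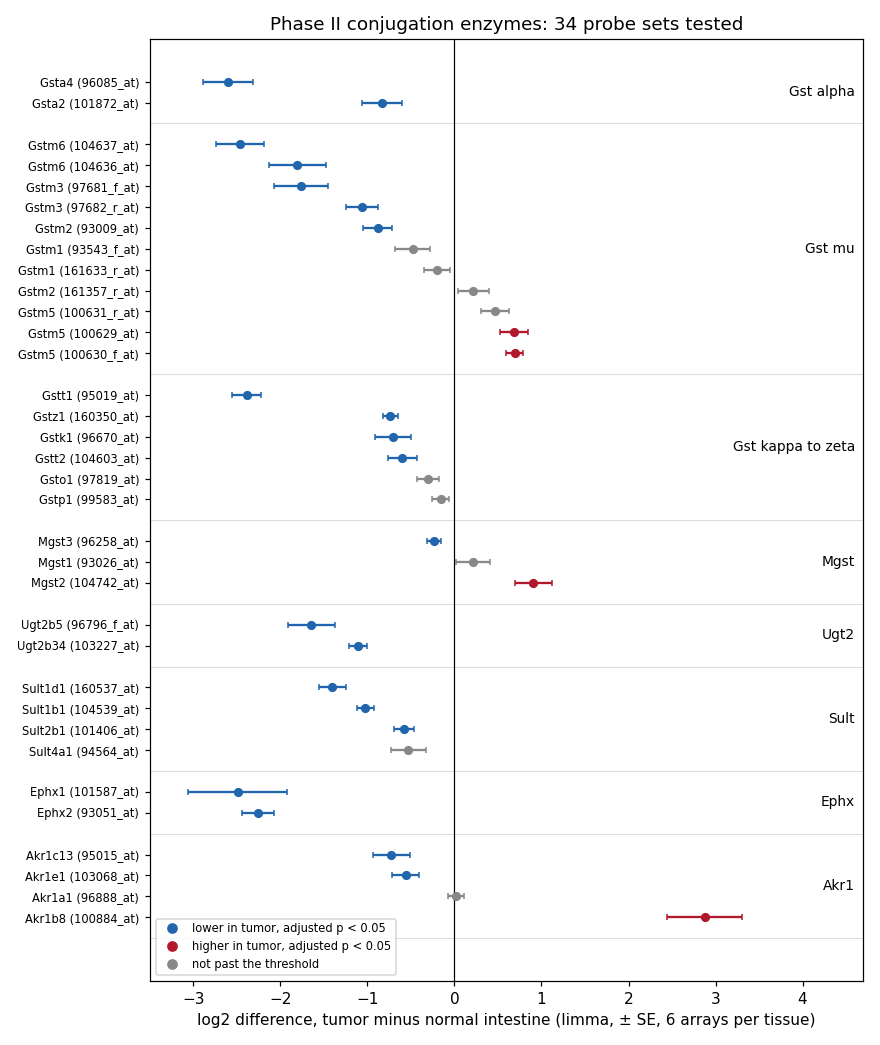
Tumor minus normal difference (log2, horizontal axis) of each of the 34 tested members, grouped by family, with the standard error as bars. Values at the floor enter as the floor, which touches Ephx1, Akr1b8, Gsta2, Akr1e1, a Gstm6 and a Gstm5 probe set. Members called lower lie left of 0 and range to -2.60 (Gsta4). The farthest to the right is Akr1b8 at 2.87.

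Among the alpha-class transferases, Gsta4, which conjugates the lipid peroxidation product 4-hydroxynonenal, had levels of 1031 to 4030 (median 2304) in normal intestine and 207 to 757 (median 356) in tumor. The groups did not overlap, and the difference of -2.60 ± 0.29 (SE, n = 6 against 6 arrays) was a 6.06-fold lower level (limma adjusted p = 0.000199). Gsta2, another alpha enzyme, had levels of 44.8 to 405 (median 294) in normal intestine and 44.8 to 199 (median 125) in tumor. Its difference was -0.83 (limma adjusted p = 0.021), and it lost the call when any of 6 of the 12 arrays was left out. The call was also lost without the diet #2 arrays. All 4 diet #1 arrays were at the file's floor, so the fitted size of Gsta2 rests in part on floor values. Its mean log2 levels were 8.45 in normal intestine and 7.39 in tumor on diet #2, and 8.38 and 6.96 on diet #3. Gsta1 and Gsta3, the other alpha members, were too dim to be tested.

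The mu class, with 2 or more tested probe sets for each gene, held members called in both directions. In chromosome order the members on chromosome 3 run Gstm5, Gstm6, Gstm3, Gstm2, Gstm1, with no protein-coding gene between neighbours from Gstm6 onward and 1 between Gstm5 and Gstm6 (order from RefSeq, GRCm38.p6). The promoters of Gstm5, whose 2 called probe sets rose, of its near neighbour Gstm3, whose probe sets fell, and of Akr1b8, the member with the largest rise, are shown to set letters beside direction. They are RefSeq windows on GRCm38.p6, 250 bases before to 50 after the start, 5′ to 3′ on the gene's strand: chr3:107895604-107895903 (plus), chr3:107969125-107969424 (minus) and chr6:34353896-34354195 (plus). Capitals mark every match, on either strand, to the antioxidant response element core TGACNNNGC, the xenobiotic response element core GCGTG or the HNF1 core GTTAAT.
Gstm5: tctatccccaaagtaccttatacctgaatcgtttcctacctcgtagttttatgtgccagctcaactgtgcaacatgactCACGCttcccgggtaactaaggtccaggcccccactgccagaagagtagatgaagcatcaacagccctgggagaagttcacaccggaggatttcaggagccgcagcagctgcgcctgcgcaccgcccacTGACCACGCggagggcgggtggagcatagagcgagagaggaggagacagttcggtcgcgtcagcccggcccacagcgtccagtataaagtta
Gstm3: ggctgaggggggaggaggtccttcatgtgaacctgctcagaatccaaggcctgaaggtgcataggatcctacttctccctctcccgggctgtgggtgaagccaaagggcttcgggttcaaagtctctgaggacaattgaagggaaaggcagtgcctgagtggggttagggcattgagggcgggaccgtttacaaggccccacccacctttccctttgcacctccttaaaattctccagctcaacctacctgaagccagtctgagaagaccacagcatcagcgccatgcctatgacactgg
Akr1b8: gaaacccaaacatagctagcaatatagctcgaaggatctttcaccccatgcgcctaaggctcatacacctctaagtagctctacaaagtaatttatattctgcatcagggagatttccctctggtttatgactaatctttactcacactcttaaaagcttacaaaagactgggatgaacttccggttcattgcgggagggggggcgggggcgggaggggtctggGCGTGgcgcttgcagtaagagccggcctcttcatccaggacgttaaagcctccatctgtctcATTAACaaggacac

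The Gstm5 window held the antioxidant core as TGACCACGC, starting 42 bases upstream of the start and overlapping a xenobiotic core on the other strand, with a further xenobiotic core 171 bases upstream. The Gstm3 window held none of the 3 motifs. The Akr1b8 window held a xenobiotic core 26 bases upstream and an HNF1 core 36 bases after the start, and no antioxidant core. Windows were found for 24 of the tested genes. These genes had 31 windows. The antioxidant core occurred in 2 windows (Gstm5 and Mgst1) and in 12.4% of all 32851 promoters, the xenobiotic core in 11 windows of 9 genes and in 32.4%, and the HNF1 core in 2 windows (Akr1b8 and Sult1d1) and in 7.1%. Of the genes with the xenobiotic core, Gsta2, Mgst3, Sult1b1, Sult1d1 and Sult2b1 were called lower in tumor, and Gstm1 and Gstp1 did not pass. The window of Mgst2, called higher, held none of the 3 motifs. A match is a description of letters and not a bound site.

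Gstm6 had the largest fall of the mu class. Its probe set 104637_at had levels of 524 to 1178 (median 709) in normal intestine and 53.3 to 396 (median 122) in tumor, without overlap, a difference of -2.47 ± 0.27 (5.53-fold lower, limma adjusted p = 0.000203). The other Gstm6 probe set, 104636_at, was also called lower (limma adjusted p = 0.0029), with groups that overlapped. It was at the floor on 1 normal and 2 tumor arrays, and with every level under 144 raised to that value its difference was -1.13. Gstm3 had levels of 3635 to 10631 (median 3881) in normal intestine and 662 to 2760 (median 1383) in tumor on probe set 97681_f_at, again without overlap. The difference was -1.77 ± 0.31 (3.40-fold lower, limma adjusted p = 0.0025), and on its other probe set, 97682_r_at, -1.06 ± 0.19 (limma adjusted p = 0.0024). On 97682_r_at the groups overlapped, because both diet #1 tumor arrays (4108 and 4026) were above 4 of the 6 normal arrays, although every code's tumor array was below its normal array.

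Gstm2 differed by probe set: 93009_at fell by 0.88 (333 to 639 in normal intestine, 203 to 304 in tumor, limma adjusted p = 0.0033), and 161357_r_at gave 0.22 (limma adjusted p = 0.39). The call of 93009_at was lost without the diet #2 arrays. Both Gstm1 probe sets missed the threshold, at -0.48 (limma adjusted p = 0.097) and -0.20 (limma adjusted p = 0.34). Gstm5 went the other way: probe set 100630_f_at had levels of 2065 to 2744 (median 2579) in normal intestine and 2919 to 5554 (median 4134) in tumor. The groups did not overlap, at 0.69 ± 0.098 (1.61-fold higher, limma adjusted p = 0.000836). Probe set 100629_at also rose by 0.69 (295 to 545 against 539 to 744, limma adjusted p = 0.0093). Without the diet #1 arrays its call was lost. On diet #2 it read 545 and 439 in normal intestine and 539 and 552 in tumor. The third, 100631_r_at, gave 0.46 (limma adjusted p = 0.054) and was at the floor on all 4 diet #1 arrays. It passed with values as deposited (0.65, limma adjusted p = 0.022) and with a floor at the 40th percentile (0.45, limma adjusted p = 0.034). Under median scaling it did not pass (0.42, limma adjusted p = 0.10). The remaining Gstm5 probe set was too dim to test. Names ending in f mark probe sets whose probes are shared within a gene family and those ending in r sets made under relaxed design rules, so signals of near-identical mu genes cannot be told apart on these.

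**Figure D2:**
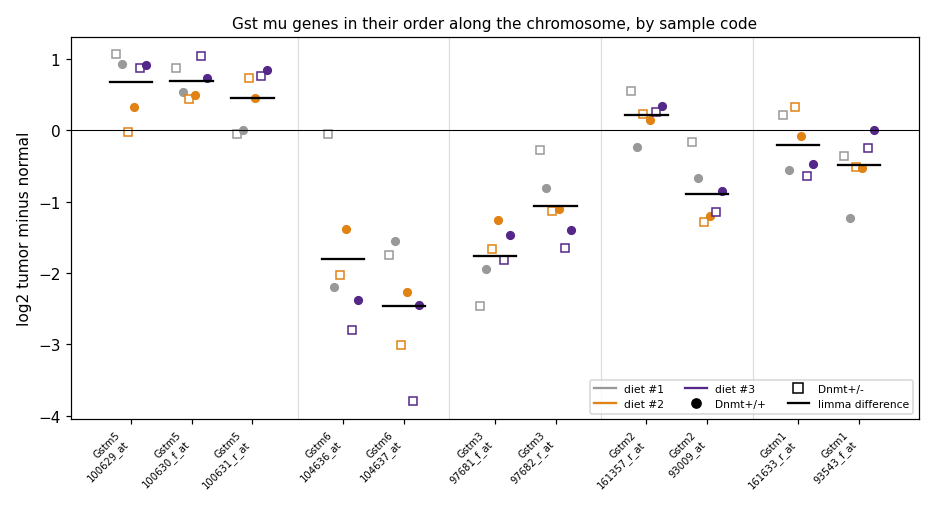
Tumor minus normal difference (log2, vertical axis) of the 11 tested mu-class probe sets, with the genes in their order on chromosome 3. Each point is a sample code, marked by diet and genotype, and each black line the fitted difference. The lines of the Gstm5 probe sets lie above 0 (0.46 to 0.69), those of Gstm6 and Gstm3 below (-1.06 to -2.47), and Gstm2 has a probe set on each side.

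Of the 6 other soluble transferases, 4 were lower in tumor and 2 did not pass. Gstt1, the theta enzyme that acts on small halogenated compounds, had levels of 1553 to 2882 (median 2366) in normal intestine and 298 to 566 (median 428) in tumor. The groups did not overlap, and the difference of -2.39 ± 0.17 was 5.23-fold (limma adjusted p = 1.97e-05). Its neighbour on chromosome 10, Gstt2, fell less, by 0.60 (432 to 861 against 170 to 682, limma adjusted p = 0.023). The call of Gstt2 was lost without the diet #1 arrays, without the diet #2 arrays and with values as deposited. It was also lost in 1 of the 12 fits that each left out 1 array. Gstz1, the zeta enzyme of tyrosine breakdown, fell by 0.74 ± 0.087 (912 to 2042 against 585 to 1057, limma adjusted p = 0.000281). Every code's tumor array was below its normal array, although the groups overlapped.

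Gstk1, the kappa enzyme of mitochondria and peroxisomes, fell by 0.70 ± 0.21 (1308 to 2977 against 891 to 1396, limma adjusted p = 0.027), and 4 of the 12 fits that each left out 1 array lost this call. Gstp1, the pi enzyme, at 7878 to 9848 in normal intestine and 7055 to 8766 in tumor, gave -0.16 (limma adjusted p = 0.23). Gsto1, the omega enzyme, gave -0.31 (limma adjusted p = 0.096). The microsomal transferases, which sit in membranes, were divided. Mgst2, which can make leukotriene C4, had levels of 816 to 1240 (median 870) in normal intestine and 1067 to 2988 (median 1842) in tumor. It was higher in tumor in 6 of 6 codes by 0.91 ± 0.21 (1.87-fold, limma adjusted p = 0.0095), with groups that overlapped. Without the diet #2 arrays the difference of Mgst2 was 0.50 and the call was lost (limma adjusted p = 0.051). Mgst3 gave -0.24 (9271 to 11230 against 7667 to 9516, limma adjusted p = 0.045), a call that was lost whichever array was left out and also with the sample code as a block (limma adjusted p = 0.067). Mgst1 gave 0.22 (limma adjusted p = 0.43).

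**Figure D3:**
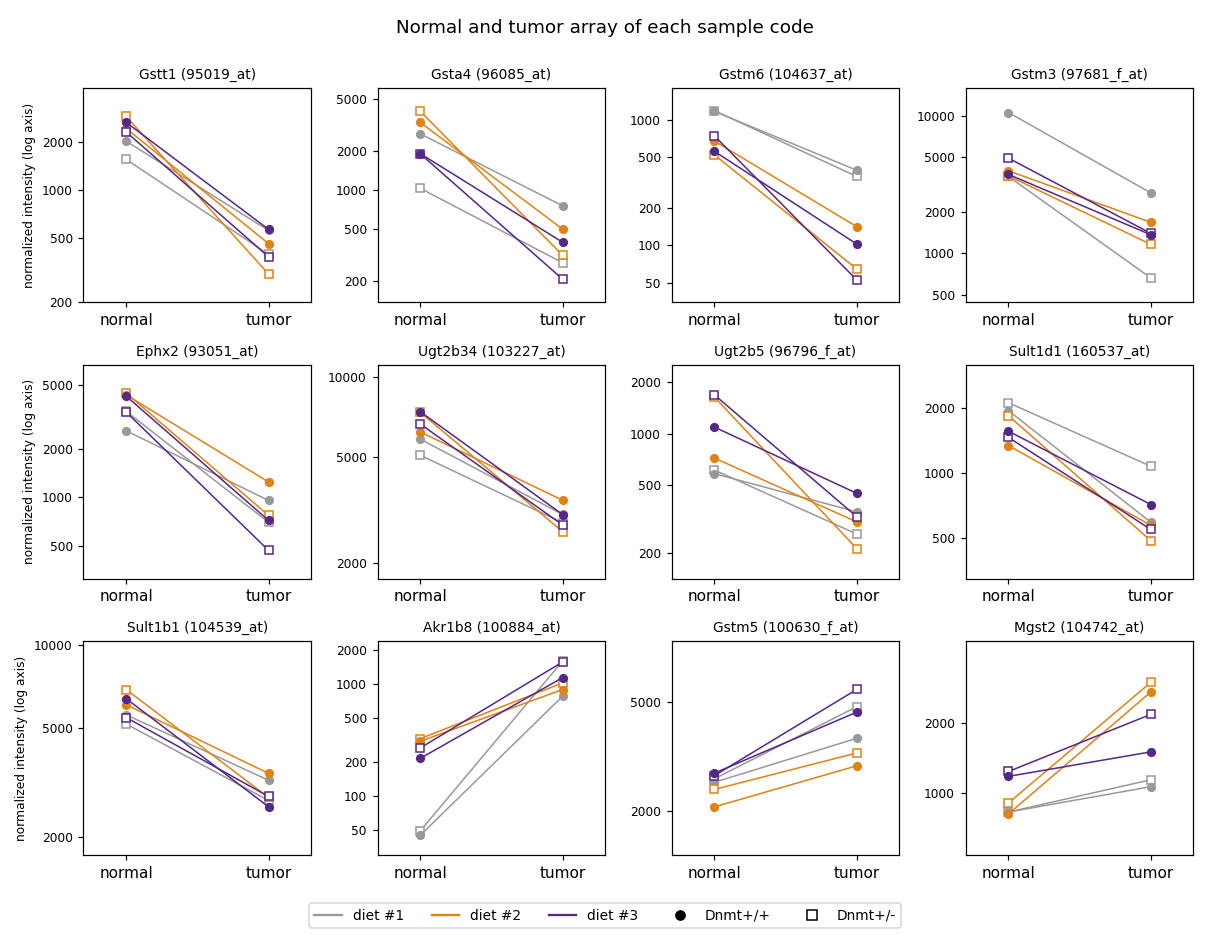
Level (normalized intensity, log axis) of 12 members in normal intestine and in tumor for the 6 sample codes, joined by a line and marked by diet and genotype. The 9 members in the panels from Gstt1 to Sult1b1 fall along every line, and Akr1b8, Gstm5 and Mgst2 rise along every line. The 2 lowest normal points of Akr1b8 are the diet #1 arrays.

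Both glucuronosyltransferases were lower in tumor. Ugt2b34 had levels of 5095 to 7421 (median 6451) in normal intestine and 2634 to 3456 (median 2949) in tumor, without overlap, and fell by 1.11 ± 0.10 (limma adjusted p = 8.84e-05). Ugt2b5 had levels of 582 to 1689 (median 906) and 212 to 446 (median 314), also without overlap, and fell by 1.64 ± 0.27 (limma adjusted p = 0.0017). Its probe set is shared within the Ugt2b family, so other Ugt2b transcripts could contribute.

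Of the 4 sulfotransferases tested, 3 were lower in tumor. Sult1b1, which sulfates small phenols and thyroid hormones, had levels of 5164 to 6900 (median 5822) in normal intestine and 2572 to 3409 (median 2795) in tumor, and fell by 1.02 ± 0.098 (limma adjusted p = 9.35e-05). Sult1d1, known for sulfating catecholamines, fell from 1346 to 2127 (median 1710) to 487 to 1078 (median 583), by 1.40 ± 0.16 (limma adjusted p = 0.000238). The groups did not overlap for either gene. Sult2b1, a sterol sulfotransferase, fell by 0.58 ± 0.11 (1671 to 3143 against 1224 to 1697, limma adjusted p = 0.0041). Sult4a1 gave -0.53 (limma adjusted p = 0.074). Ugt2b34, Ugt2b5, Sult1b1 and Sult1d1, all lower in tumor, follow each other on chromosome 5 with 3, 5 and 0 protein-coding genes between neighbours.

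Both epoxide hydrolases were lower in tumor. Ephx2, the soluble enzyme that hydrolyses fatty acid epoxides, had levels of 2604 to 4480 (median 3864) in normal intestine and 467 to 1248 (median 745) in tumor, without overlap, and fell by 2.26 ± 0.18 (4.77-fold lower, limma adjusted p = 3.83e-05). Ephx1, the microsomal enzyme, had levels of 48.9 to 878 (median 400) and 44.8 to 87.4 (median 48.6), and was called lower in tumor (limma adjusted p = 0.0092). Its tumor levels lay at or near the floor, so neither a fold nor the fitted difference is given. The groups overlapped because the diet #1 Dnmt+/- normal array was at the file's floor. With every level under 144 raised to that value the difference was -1.32 (limma adjusted p = 0.019). Without the diet #2 arrays the call was lost (limma adjusted p = 0.073).

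The aldo-keto reductases were split. Akr1b8, an aldose reductase-like enzyme that reduces aldehydes and retinal, had levels of 44.8 to 324 (median 242) in normal intestine and 773 to 1591 (median 1076) in tumor. The groups did not overlap, and the difference was 2.87 ± 0.43 (7.33-fold higher, limma adjusted p = 0.0011). Both diet #1 normal arrays were at the file's floor, so the fitted size rests in part on floor values. Within diets the difference was 1.59 (#2) and 2.47 (#3), and without the diet #1 arrays it was 2.03 (limma adjusted p = 0.000793). With every level under 144 raised to that value, a setting chosen after seeing the data, it was 2.33. Akr1c13 fell by 0.73 (2005 to 7296 against 2140 to 4271, limma adjusted p = 0.025), but 7 of the 12 fits leaving out an array lost the call. Akr1e1, which reduces anhydrofructose, fell by 0.56 (limma adjusted p = 0.021), and 4 of 12 such fits lost it. All 4 diet #1 arrays were at the file's floor for Akr1e1, so this size rests in part on floor values. Its mean log2 levels were 8.57 in normal intestine and 7.80 in tumor on diet #2, and 8.83 and 7.94 on diet #3. Without the diet #2 arrays the calls of Akr1c13 and Akr1e1 were both lost. Akr1a1, the general aldehyde reductase, at 9034 to 12220 and 9769 to 11971, gave 0.02 (limma adjusted p = 0.88).

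The 13 members that were not tested belonged to 12 genes, 9 of which had no other probe set in the test. They were Gsta1, Gsta3, Akr1c21, Akr1c6, Sult1c1, Sult2a2, Sult3a1 and Sult5a1 with 1 probe set each, Sult1a1 with 2, and dim second probe sets of Gstm5, Mgst2 and Mgst3. On every array 5 of them were at the floor, and the highest level of any was 204 (Akr1c6).

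The genes around conjugation were counted in 6 lists, and each count is to be read beside the 16.6% of all probe sets called lower and 17.1% called higher. In the list of cofactor supply, 2 of 5 tested genes were lower and 0 higher (median -0.21). Papss2, which makes the sulfate donor of the sulfotransferases, had levels of 4480 to 10295 in normal intestine and 755 to 5535 in tumor, 3.63-fold lower (limma adjusted p = 0.0049). The groups overlapped, and the size of the fall differed by diet. The diet #1 tumor arrays read 4325 and 5535, and the tumor arrays of diets #2 and #3 read 755 to 2136. For the diet #1 Dnmt+/- code the normal array, at 4480, was close to its tumor array. Ugdh, which makes UDP-glucuronic acid, was 1.41-fold lower (6404 to 14659 against 5316 to 7780, limma adjusted p = 0.015). Glutathione synthesis and recycling had 3 of 9 tested genes higher and 0 lower (median 0.12). The 3 were Gsr, Me1 and Anpep, and Anpep was also counted among the absorptive enterocyte markers. The synthesis genes Gclc, Gclm and Gss did not pass (limma adjusted p = 0.38, 0.15 and 0.62). Gsr, which regenerates reduced glutathione, rose 2.30-fold (1057 to 1354 against 1996 to 3675, limma adjusted p = 0.000384). Me1, a malic enzyme that makes NADPH, rose 3.90-fold (44.8 to 496 against 617 to 1229, limma adjusted p = 0.0022). Its diet #1 Dnmt+/+ normal array was at the file's floor, so the size rests in part on a floor value.

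Export pumps for conjugates had 2 of 6 tested genes lower and 0 higher (median -0.29). Abcc2, which moves glutathione and glucuronide conjugates into the gut lumen, had levels of 808 to 1120 in normal intestine and 188 to 489 in tumor, 2.98-fold lower (limma adjusted p = 8.2e-05). Abcg2, which exports sulfate conjugates, was 1.72-fold lower (1523 to 3381 against 826 to 1834, limma adjusted p = 0.000943). The transcription factors that act on such genes had 4 of 13 tested lower and 0 higher (median -0.27), among them Vdr, the vitamin D receptor, at -1.56 and Nr1i3, the xenobiotic receptor CAR, at -0.97 (limma adjusted p = 0.000435 and 0.000154). Targets of the antioxidant factor Nrf2 outside these families had 5 of 12 lower and 2 higher (median -0.18), the latter near the 17.1% of all probe sets. Of these Cbr1, a carbonyl reductase, was at -0.92 (limma adjusted p = 0.0018). Ces1d, a carboxylesterase, was called lower (limma adjusted p = 0.0047) at 44.8 to 730 against 44.8 to 74, with 4 of 6 tumor arrays at the floor, so no size is given. Of 3 other conjugating transferases tested, Tst, which transfers sulfur to cyanide, was at 0.93 and Nat2, an N-acetyltransferase, at -0.76 (limma adjusted p = 0.0022 and 0.0015).

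**Figure D4:**
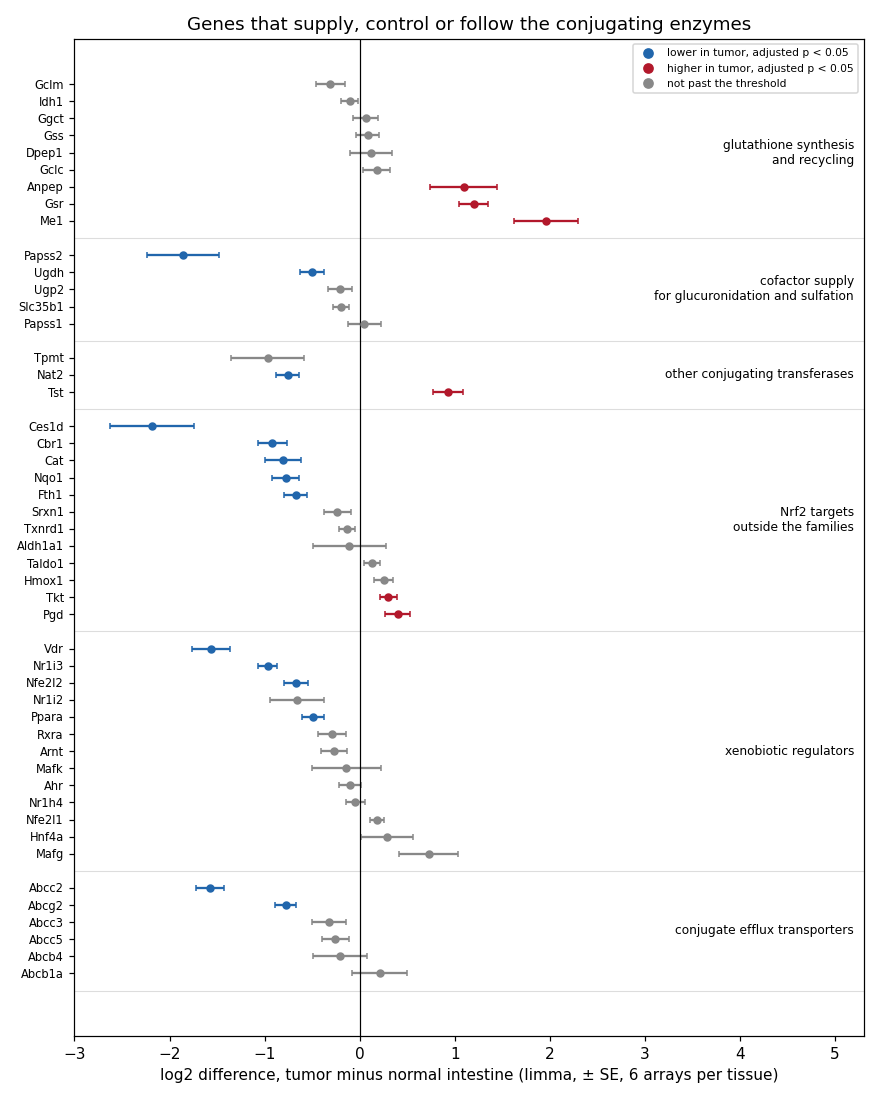
Tumor minus normal difference (log2) of each tested gene in the 6 lists of genes around conjugation, with genes past the threshold marked apart from the rest. Ces1d and Me1 are among the genes plotted from levels that include the floor. Me1 is the highest point of the glutathione list at 1.96, and Papss2 the lowest of the cofactor list at -1.86.

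Dnmt+/- and Dnmt+/+ arrays gave no called difference among the members. None of 34 passed in limma, beside 0.0134% of all probe sets, and 1 had an unadjusted p under 0.05, beside 4.4%. That member was Gsta4, at -0.70 ± 0.29 in Dnmt+/- relative to Dnmt+/+ (6 arrays each, limma adjusted p = 0.92). In tumor the Dnmt+/- arrays read 276, 316 and 207 on diets #1, #2 and #3 and the Dnmt+/+ arrays 757, 501 and 397. In normal intestine they read 1031, 4030 and 1900 against 2703, 3312 and 1905. Gsta4 had the smallest genotype p of the 34 members, and the genotypes were not compared within 1 tissue. Its tissue by genotype term had a limma unadjusted p of 0.28. Gstm3 was next, at -0.64 on 97681_f_at (limma unadjusted p = 0.071). The tissue difference did not pass for a dependence on genotype in any member, and no probe set of the 7453 passed (2.87% had an unadjusted p under 0.05, among them 1 member). The smallest p values were those of Ugt2b5 (-1.10 ± 0.42, limma unadjusted p = 0.030) and Gstk1 (-0.77, limma unadjusted p = 0.055).

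Diets #3 and #2 differed in 3 of 34 members, beside 4.58% of all probe sets. All 3 were higher on diet #3 (2.72% of all) and 0 lower (1.85%). At an unadjusted p under 0.05 there were again 3 members, beside 21.9% of all probe sets. Gstz1 had levels of 2042 and 1733 on the diet #3 normal arrays and 1057 and 952 on the tumor arrays, against 975 and 912, and 585 and 607, on diet #2. Every diet #3 array was above the diet #2 arrays of its tissue, a difference of 0.87 ± 0.11 (1.83-fold, 4 arrays each, limma adjusted p = 0.0064). On diet #1 Gstz1 read 1210 and 945 in normal intestine and 723 and 647 in tumor.

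The other calls were 2 probe sets of Gstm5 that disagreed in size. Probe set 100631_r_at read 346 to 648 on diet #3 and 93 to 195 on diet #2, a difference of 1.77 ± 0.20 (3.41-fold, limma adjusted p = 0.0054), and it was at the floor on all 4 diet #1 arrays. Probe set 100630_f_at gave 0.50 ± 0.12 (limma adjusted p = 0.0497) and lost the call whichever array was left out, and 100629_at gave 0.03. With a random block on the sample code, the count over all probe sets was 688 in place of 341, and that of the members was 3 again.

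**Figure D5:**
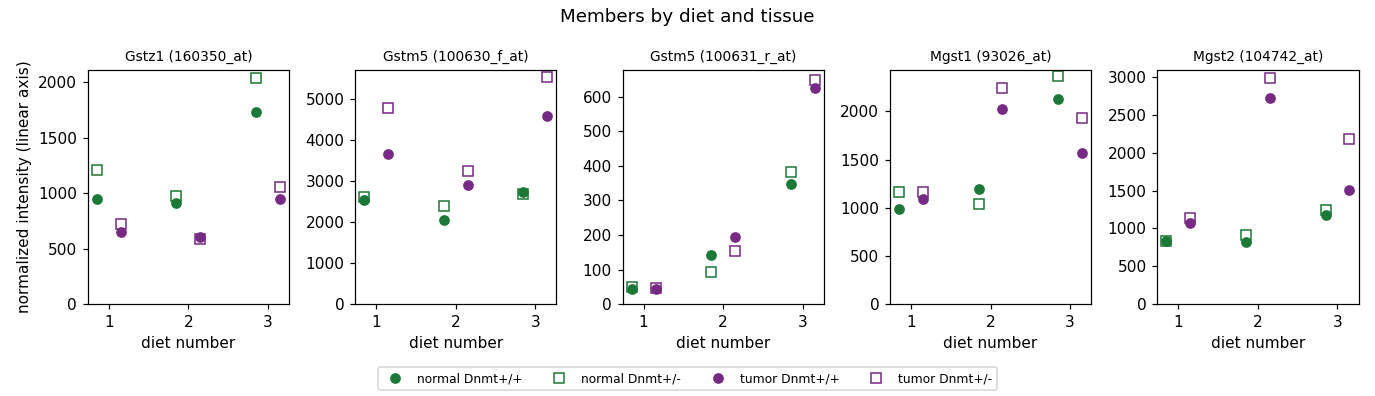
Level (normalized intensity, linear axis from 0) by diet and tissue of members called for diet #3 against diet #2 or with the smallest p for the tissue by diet term, each point an array. Gstz1 lies higher on diet #3 than on diet #2 in each tissue, and Mgst1 is higher in tumor on diet #2 and lower in tumor on diet #3.

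Whether the tissue difference depended on diet (#3 against #2) was called for 0 of 34 members in limma, beside 0.47% of all probe sets, and 4 members had an unadjusted p under 0.05, beside 9.79%. Mgst1 and Mgst2, both microsomal, had the smallest p. Mgst1 read 1034 and 1196 in normal intestine and 2245 and 2027 in tumor on diet #2, and 2363 and 2123 in normal intestine and 1931 and 1564 in tumor on diet #3. The order of the tissues was thus opposite on the 2 diets, and the difference of differences was -1.31 ± 0.22 (limma adjusted p = 0.081). Over all alternatives the limma adjusted p of Mgst1 ran from 0.025 to 0.35. It passed under 5 of them, 1 of which was chosen after seeing the data, and with the sample code as a block it was 0.20. Mgst2 was higher in tumor on each diet, with 2988 and 2717 against 909 and 816 on diet #2 and 2179 and 1505 against 1240 and 1182 on diet #3, and its difference of differences was -1.15 ± 0.23 (limma adjusted p = 0.15). The diet #2 normal arrays are those with the high pancreas marker levels, and the part of these in both diet comparisons was not tested.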

How the data were processed

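Total RNA was hybridised to single-colour Affymetrix MG_U74Av2 arrays, 12 in all, per the labels. The deposited values are intensities, 1 for each of 12488 probe sets on each array. The authors' method of summarising probes is not stated in the sources at hand. The 8 arrays of diets #2 and #3 had a mean intensity of 1000, and the 4 of diet #1 had means of 306 to 403 and a floor of 50. Array number limits the precision, and depth has no counterpart.

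The 66 control probe sets were removed. The other 12422 were quantile-normalized, raised to the 20th percentile (44.8), and set on the log2 scale. Those in the lowest 40% by mean were left out, which left 7453. Models were fitted with limma 3.58.1 in R 4.3.3 (lmFit, eBayes; terms tissue, diet and genotype, and 1 interaction at a time), adjusted by Benjamini-Hochberg, two-sided. The fits were tested on simulated data. Probe sets were named from the platform's annotation: 10833 had 1 symbol, 396 several and 1193 none. All 47 members matched RefSeq (GRCm38.p6) by Entrez identifier. Several probe sets of a gene were kept apart.

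Members and gene lists were chosen with earlier results of these data known. The rule for values by array took, in each family, up to 3 called members with the largest difference and the same direction in all 6 codes, called members against their family's majority, and members called for genotype, diet or an interaction, or the 2 of smallest p. Each list gave its 2 largest called genes. The third Gstm5 probe set, and other members that missed the threshold, are given so that each tested gene has a value.

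Normal and tumor arrays share sample codes. Deviations from tissue means correlated at 0.47 to 0.69 within codes, but after removing diet and genotype at -0.57 to -0.38, where -0.43 is the value for independent arrays. Whether a code is 1 animal is not in the labels. The most alike arrays of a tissue correlated at 0.987, and none were identical.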

Additional observations from a re-analysis of the deposited data

Results flagged for a closer look

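In 40 groups of 6 arrays that were checked, 2 had an array far from the others by Dixon's criterion, which chance alone meets in about 1 in 20 groups. Gstm3 (97681_f_at) read 10631 on the diet #1 Dnmt+/+ normal array, and the next highest normal array read 4945. The gap was 0.713 of the range. Without that array the tumor minus normal difference was -1.57 (limma adjusted p = 0.0054), in place of -1.77. Gstk1 read 891 on the diet #3 Dnmt+/- tumor array, and the next lowest tumor array read 1208, a gap of 0.678 of the range. Without it the difference was -0.52 (limma adjusted p = 0.030), in place of -0.70.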

How the results depend on the processing

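Without the diet #2 arrays 13 members were called lower, in place of 21, and 3 higher, in place of 4 (Mgst2 lost), from 8 arrays in place of 12. Mgst1 then turned from 0.22 to -0.15 (limma adjusted p = 0.49), called in neither. The tissue by diet term was called for 1 member, Mgst1, in place of 0, under median scaling, a floor at the 40th percentile, removal of the lowest 60%, trended robust variances, and a floor at the highest level the file's floor can hide (an alternative chosen after seeing the data). The causes were not tested. With each array left out in turn, 16 to 21 members were lower, 4 to 5 higher, 0 to 0 called for genotype, 2 to 2 for diet and 0 to 0 for either interaction. With the sample code as a replicate block 20 were lower (Mgst3 lost), 4 higher, 3 called for diet and 0 for genotype or an interaction. Of the 25 members called for tissue, 19 kept the call whichever array was left out, 21 with diet #1 left out and 16 with diet #2 left out. In every setting run for them 15 kept it, of which 2 (second probe sets of Gstm6 and Gstm3) were not run in all settings, and 0 changed sign where fitted. Median scaling moved the median of all probe sets to -0.10 (934 called higher, 1742 lower) and that of the members to -0.82, and values as deposited to 0.13 (1512 higher, 815 lower) and -0.59. Signal near the floor limits Ephx1, Akr1b8, Gsta2, Akr1e1, Gstm6 (104636_at) and Gstm5 (100631_r_at).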
